A study of Mus musculus with 28 samples.

Results

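Hippocampal microglia of 5 antibiotic-treated wild-type (ABX WT) mice were compared with those of 5 untreated wild-type mice kept under specific pathogen free conditions (SPF WT). These 10 mice were chosen by the titles of their libraries, out of 28 mice in the series, and each library holds the RNA of 1 mouse. All 10 were male non-transgenic littermates of 5xFAD mice, a transgenic model of Alzheimer's disease, on a C57BL/6J background, and all were 16 weeks old. ABX mice had received vancomycin, cefoxitin, gentamicin and metronidazole in their drinking water for 8 weeks, so their microbiota was depleted in adult life and had been present before. SPF mice received none of these drugs. Microglia were sorted as CD11b+CD45low cells negative for lymphocyte, monocyte and granulocyte markers. The comparison asks whether the loss of gut bacteria in adulthood, without amyloid pathology, changed the transcriptome of microglia.

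Microglia are the resident macrophages of the brain parenchyma. They depend on CSF1R signalling and on TGF-beta, which maintains their homeostatic program of genes such as *P2ry12* and *Tmem119*. Bacterial metabolites, among them short-chain fatty acids, are known to shape their maturation and their responses to stimuli, and microglia of germ-free mice are known to be immature. An antibiotic mixture removes most gut bacteria, but the drugs can also reach host tissues, and both differ together between the groups compared here.

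SPF mice had 16939825 to 25751625 counted reads per library and ABX mice 14441610 to 29977395, and these totals did not differ beyond the spread between mice (exact two-sided permutation test, p = 0.357, where 5 against 5 mice allow 0.00794 at the least). The summed level of 7 microglial markers was 55370 to 60050 CPM (read counts scaled to a common library size) in SPF and 54780 to 61320 CPM in ABX mice. Neutrophil markers stayed at or under 0.294 CPM in each mouse, T and NK cell markers at or under 0.748 CPM and erythrocyte markers at or under 0.477 CPM. Of 12 lists of cell type markers, tested together with library totals, the one with the smallest exact p was that of oligodendrocytes, with 165 to 190 CPM in SPF and 163 to 168 CPM in ABX mice (exact p = 0.0317, adjusted p = 0.413 over 13 tests). Its defining genes *Mog* and *Cldn11* were at or under 0.655 CPM in each mouse, and *Cnp*, *Mbp* and *Mag* made up most of the sum. Astrocyte markers summed to 204 to 331 CPM over both groups, nearly all of it *Slc1a3*, with *Gfap* at or under 2.39 CPM. B cell markers summed to 548 to 735 CPM, mostly *Ighm*. In such bulk samples, fewer cells of a type and less RNA per cell cannot be told apart.

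No single gene passed the adjusted threshold of 0.05 between ABX and SPF WT mice. In edgeR's quasi-likelihood test 15298 genes were tested, 0 were called (0 percent) and the smallest adjusted p was 1. At an unadjusted p under 0.05, 687 genes passed, which is 4.49 percent of those tested. Of these, 268 were higher in ABX mice (1.75 percent) and 419 were lower (2.74 percent). Limma's voom and voomWithQualityWeights called 0 genes as well, with 673 and 1610 genes at an unadjusted p under 0.05. DESeq2 called 2 genes, *S100a9* and *Camp*, and had 757 at an unadjusted p under 0.05. *S100a9* had 3 reads in 1 SPF mouse and 0 in the other 9 mice, and *Camp* had 1 read in each of 2 ABX mice and 0 elsewhere, so neither call rests on a measurable level in these 10 mice.

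The data bounded the size of a change for most expressed genes. A 95% interval for the log2 fold change could be given for 15233 genes, and the other 65 had 0 reads in all 10 mice. The margin of the interval on either side had a median of 0.420 on the log2 scale, or 1.34-fold. The whole interval lay within a 2-fold change in either direction for 67.5 percent of genes, within 1.5-fold for 49.3 percent and within 1.2-fold for 7 percent. These shares depended on the level of expression. Among 4434 genes with an average of 4 to 6 log2 CPM, 98.9 percent were bounded within 2-fold and 82.5 percent within 1.5-fold. Among 557 genes of 8 log2 CPM and over, 99.8 percent were bounded within 2-fold, 95.7 percent within 1.5-fold and 45.4 percent within 1.2-fold. For 2891 genes under 0 log2 CPM, 0.657 percent were bounded within 2-fold, so for most rare transcripts a 2-fold change could not be bounded with these libraries. Each interval covers its own gene and is not adjusted for the number of genes.

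**Figure D1:**
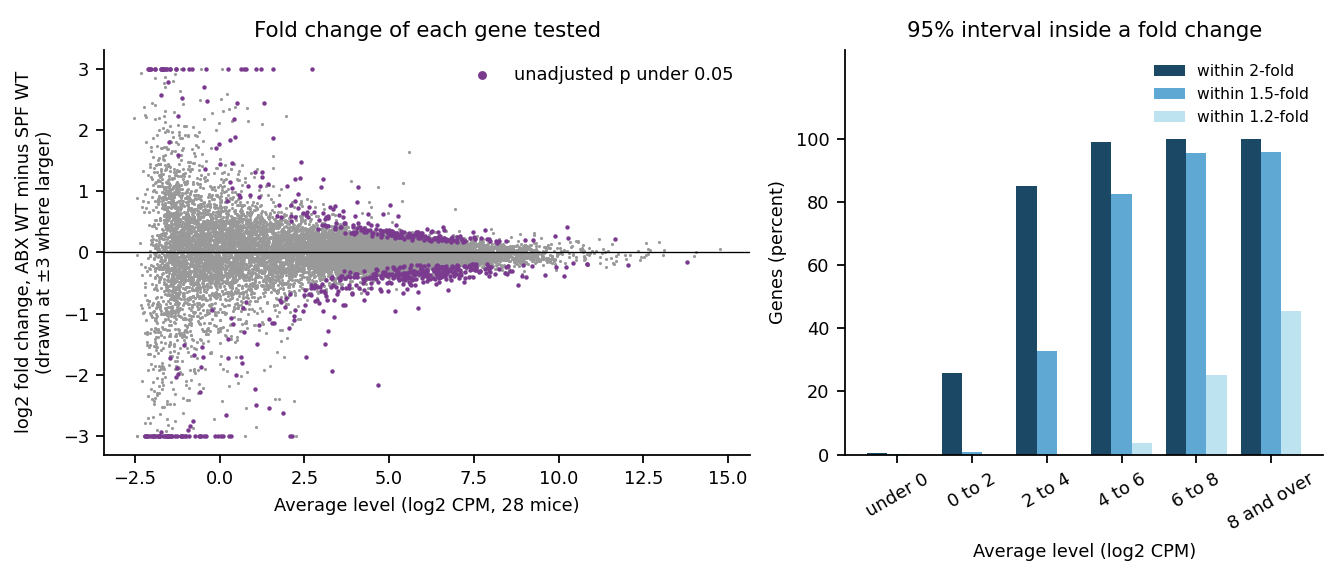
Left, log2 fold change of each gene (ABX WT minus SPF WT, drawn at 3 or -3 where larger) against its average level in log2 CPM, with the 687 genes of unadjusted p under 0.05 in purple. Right, percent of genes, by average level, whose 95% interval lay within a 2-fold, 1.5-fold or 1.2-fold change: from 0.657 percent within 2-fold in the lowest class to 99.8 percent in the highest.

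Genes of the homeostatic program were among the most narrowly bounded. *P2ry12*, the purinergic receptor that guides processes towards ATP, was at 10740, 9908, 8469, 8724 and 9778 CPM in SPF and at 10810, 10580, 10780, 9624 and 11930 CPM in ABX mice. The groups overlapped, and the fold change was 1.13, with an interval from 0.977 to 1.30. *Tmem119*, a surface marker of microglia, had a mean of 5225 ± 402 CPM in SPF and 5049 ± 509 CPM in ABX mice (SD, n = 5 each), a fold change of 0.966 (0.849 to 1.10). *Cx3cr1*, the fractalkine receptor, had a fold change of 0.920 (0.811 to 1.04). *Csf1r*, the receptor that microglia need to survive, was at 13340, 15620, 14080, 15210 and 14540 CPM in SPF and at 12740, 12530, 11030, 13620 and 15550 CPM in ABX mice. The ABX mice ABX_909, ABX_910 and ABX_911 lay below all SPF mice and the other ABX mice within their range, and the fold change was 0.899 (0.811 to 0.997, adjusted p = 1). Over the 20 genes of the homeostasis list, 9 were above 0 and 11 below, the median log2 fold change was -0.01 and all 20 intervals lay within 2-fold. *Gpr34*, a lysophosphatidylserine receptor, had the smallest p of that list, with 3596 ± 328 CPM in SPF and 4171 ± 336 CPM in ABX mice (SD, n = 5 each).

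**Figure D2:**
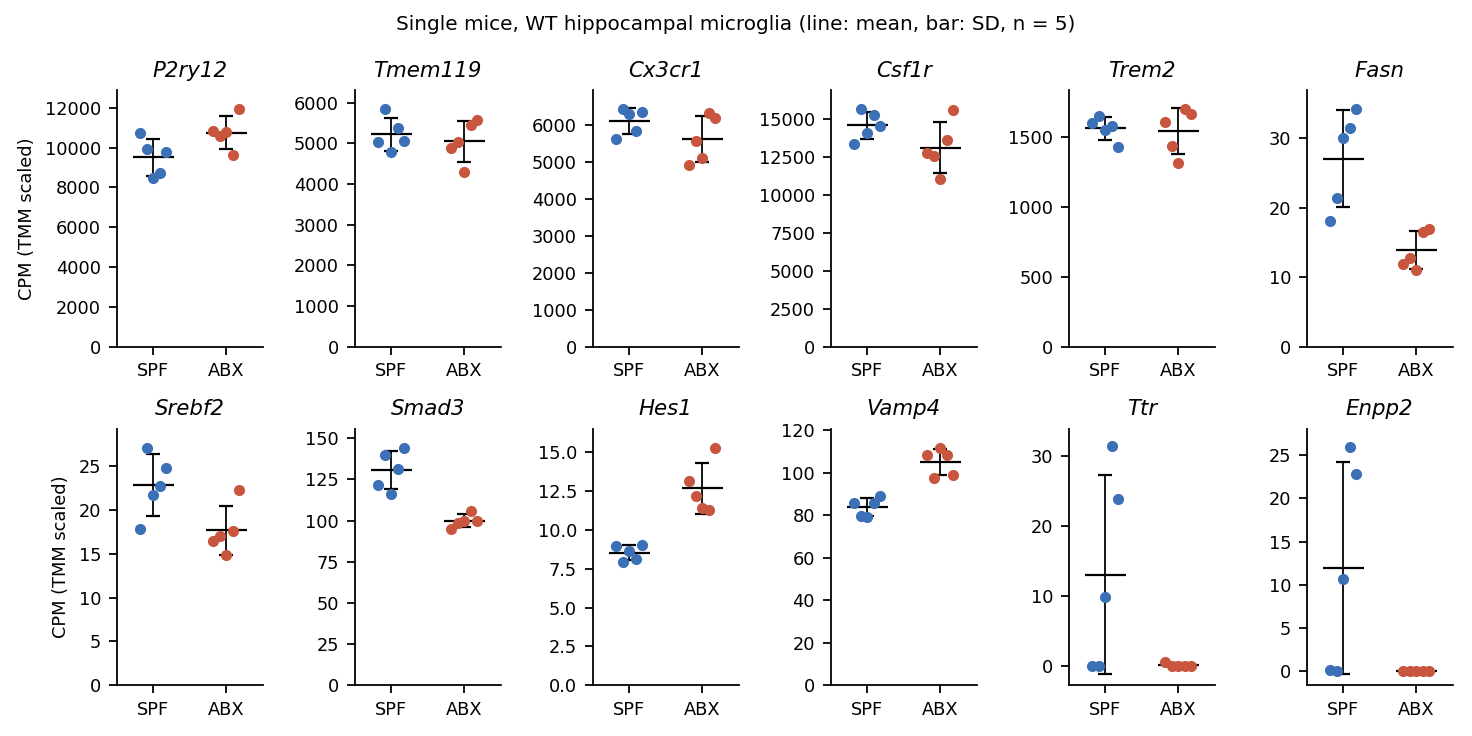
CPM of 12 genes in each of the 5 SPF WT (blue) and 5 ABX WT (red) mice, with the mean (line) and SD (bar). The groups overlapped for *P2ry12*, *Tmem119*, *Cx3cr1*, *Csf1r*, *Trem2* and *Srebf2*, did not overlap for *Fasn*, *Smad3*, *Hes1* and *Vamp4*, and for *Ttr* and *Enpp2* 3 SPF mice lay at 9.8 CPM or more and the other 7 mice under 1 CPM.

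Genes of activated microglia and of innate sensing showed no called change. Among 21 genes of the disease-associated program, 7 were above 0 and 14 below, 0 reached an unadjusted p under 0.05, and the median log2 fold change was -0.06. Less that of all genes, this median was -0.0557, and it was -0.00697 without ABX_910, -0.0145 without SPF_926, -0.0335 without ABX_932, -0.0999 without ABX_909 and 0.00178 with GC offsets. *Trem2*, the lipid receptor that this program depends on, had a fold change of 0.989 (0.864 to 1.13), and *Clec7a*, a beta-glucan receptor, one of 1.01 (0.779 to 1.30). *Apoe*, a lipid carrier, varied within each group, with 278, 476, 444, 518 and 301 CPM in SPF and 361, 348, 293, 451 and 311 CPM in ABX mice. Its fold change of 0.874 had an interval from 0.645 to 1.19. *Itgax* (0.981, 0.677 to 1.42), *Cst7* (1.07, 0.772 to 1.48) and *Axl* (0.820, 0.570 to 1.18) were bounded within 2-fold too. The receptors of bacterial products *Tlr2* (0.921, 0.816 to 1.04) and *Tlr4* (1.03, 0.844 to 1.26) were bounded more narrowly. Of the 31 sensing genes, 28 intervals lay within 2-fold, and *Pycard*, the inflammasome adaptor, had the smallest p with 260 ± 13.2 CPM in SPF and 296 ± 26.6 CPM in ABX mice (SD, n = 5 each).

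Among cytokine and chemokine transcripts, 15 of 20 intervals on the list of NF-kappaB and inflammatory cytokines and 9 of 21 on that of chemokines and their receptors lay within 2-fold. *Il1b* was at 5.42, 1.65, 2.63, 1.16 and 4.63 CPM in SPF and at 0.515, 4.17, 0.951, 16.0 and 0.198 CPM in ABX mice. ABX_923 was above and ABX_909, ABX_911 and ABX_932 were below all SPF mice, and the fold change of 1.40 had an interval from 0.485 to 4.02. Without ABX_923 its log2 fold change was -1.16 in place of 0.48. *Tnf* had a fold change of 1.38 (0.697 to 2.73), with a log2 fold change of 0.46, or -0.04 without ABX_909. *Ccl3* had a fold change of 0.893 (0.607 to 1.31) and *Ccl4* one of 0.911 (0.581 to 1.43). *Ccl9*, a chemokine for myeloid cells, had the smallest p among 21 chemokines and receptors, with 200 ± 31.5 CPM in SPF and 259 ± 38.4 CPM in ABX mice (SD, n = 5 each). Of the 37 tested genes of the type I interferon response, 28 were above 0, the median log2 fold change was 0.14, and 1, *Ifi27l2a*, reached an unadjusted p under 0.05. Without SPF_936, which had the highest mean level of this list of the 10 mice, 31 were above 0, 3 reached an unadjusted p under 0.05, and the median less that of all genes was 0.269 in place of 0.143, against 0.0985 without ABX_909. *Ifi27l2a* was at 3.75, 2.42, 2.18, 3.88 and 4.63 CPM in SPF and at 5.67, 2.18, 8.74, 4.67 and 7.41 CPM in ABX mice, with overlapping groups. *Ifit3*, an interferon-induced gene, had a fold change of 1.07 with a wide interval (0.471 to 2.45).

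For antigen presentation genes the levels of both groups overlapped in each of 17 class I and 12 class II genes tested. This is near the share over all genes tested, of which 1.22 percent did not overlap. The class I gene *H2-K1* had a fold change of 0.899 (0.768 to 1.05). The class II gene *H2-Ab1* was at 10.2, 11.2, 7.60, 8.36 and 11.5 CPM in SPF and at 11.2, 8.79, 6.66, 12.0 and 14.3 CPM in ABX mice. Its fold change of 1.09 had a wide interval (0.517 to 2.30), as had that of the invariant chain gene *Cd74* (1.30, 0.644 to 2.63). *H2-Aa*, the class II gene of smallest p, was at 0.0408, 0.537, 0.168, 1.12 and 0.936 CPM in SPF and at 0.687, 0.661, 0.951, 2.77 and 3.26 CPM in ABX mice. The groups overlapped, and its fold change of 3.13 had the widest interval of these 3 genes (0.756 to 12.9). Of 10 tested receptors for microbial metabolites, 1 was above 0 and 9 were below. Their median log2 fold change was -0.14, 7 of the 10 intervals lay within 2-fold and 0 genes reached an unadjusted p under 0.05. ABX_911 had the lowest mean level of this list, 2.39 log2 CPM against 2.92 to 3.08 in the other 4 ABX mice. Without it, 4 were above 0 and 6 below, and the median less that of all genes went from -0.137 to -0.046. It was -0.0746 without SPF_925, -0.0867 without SPF_936 and -0.0898 without ABX_910, and -0.0348 with a term for 3 ranges of the mouse numbers in the titles (ABX_909 to SPF_912, ABX_923 to SPF_928 and ABX_932 to SPF_936), which the labels do not call litters or batches. *Hdac1*, a histone deacetylase, was bounded between 0.832-fold and 1.11-fold.

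Complete separation of the 5 ABX from the 5 SPF mice was rare. It was seen for 71 genes with higher (0.464 percent) and 115 genes with lower (0.752 percent) CPM in ABX mice. The genes described next were singled out after their values were seen. *Fasn*, the fatty acid synthase (chromosome 11, 120805846 to 120824547, minus strand, GRCm38), was at 18.1, 21.4, 30.1, 31.5 and 34.2 CPM in SPF and at 11.9, 12.8, 11.1, 16.6 and 17.0 CPM in ABX mice. All ABX mice lay below all SPF mice, and the fold change was 0.515 (0.368 to 0.720, edgeR adjusted p = 1, and from 0.124 to 1 over the alternatives). *Vamp4*, a SNARE protein of the trans-Golgi network (chromosome 1, 162570515 to 162599084, plus strand), was at 85.9, 79.4, 79.1, 85.8 and 88.9 CPM in SPF and at 108, 97.6, 112, 108 and 99.0 CPM in ABX mice. All ABX mice lay above all SPF mice, with a fold change of 1.25 (1.11 to 1.41, adjusted p = 1). *Hes1*, a transcriptional repressor downstream of Notch (chromosome 16, 30064384 to 30067796, plus strand), was at 8.97, 7.90, 8.60, 8.14 and 9.03 CPM in SPF and at 13.2, 12.2, 11.4, 11.3 and 15.3 CPM in ABX mice. Here too the groups did not overlap, and the fold change was 1.49 (1.19 to 1.86, adjusted p = 1). *Rpl12* had lower CPM in all ABX mice (8.44 ± 1.38 in SPF and 4.92 ± 0.810 in ABX, SD, n = 5 each), whereas *Rps13* had 5.75 ± 1.52 CPM in SPF and 9.65 ± 2.23 CPM in ABX mice. Ribosomal protein genes have many near-identical copies, and whether reads were split among them was not tested.

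*Enpp2* and *Ttr*, with the smallest and the sixth smallest p of all genes, are genes typical of the choroid plexus epithelium, which makes cerebrospinal fluid. *Ttr*, transthyretin, had 0, 0, 176, 729 and 510 reads in SPF_912, SPF_925, SPF_926, SPF_928 and SPF_936, and 10, 0, 0, 0 and 0 reads in ABX_909, ABX_910, ABX_911, ABX_923 and ABX_932, the order in which values of single mice are given throughout. *Enpp2*, autotaxin, had 3, 0, 192, 604 and 489 reads in the SPF and 0, 0, 0, 0 and 2 reads in the ABX mice. Both genes were thus high in the same 3 SPF mice and near 0 in the remaining SPF mice as in the ABX mice. A list of 10 choroid plexus genes, assembled after these values were seen, summed to 0.168 to 62.9 CPM in SPF and to 0.114 to 1.25 CPM in ABX mice. The list holds *Ttr* and *Enpp2* themselves, which made up most of the highest sum (32.1 and 26.6 CPM in SPF_928). The sum thus largely repeats the values that led to the list and is no separate evidence. Where these reads came from, and whether their source bears on other values of these 3 mice, was not tested.

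Among genes of at least 3 log2 CPM on average over all 28 mice and an unadjusted p under 0.05, the largest differences were of genes that vary between single mice. The 5 largest towards ABX were *Rrm2*, *Top2a*, *Egr2*, *Ifi27l2a* and *Klrd1*, with log2 fold changes of 1.2, 1.06, 0.82, 0.78 and 0.75. *Rrm2* and *Top2a* are genes of DNA replication and chromosome segregation. *Rrm2* was at 0.693, 1.11, 3.19, 2.46 and 1.92 CPM in SPF and at 6.01, 0.331, 3.92, 9.28 and 1.81 CPM in ABX mice. *Top2a* reached 15.7 CPM in ABX_923 and 4.01 to 7.32 CPM in the other ABX mice, against 0.782 to 6.77 CPM in SPF mice. The same mouse had the highest *Egr2* level, 16.4 CPM against 3.39 to 5.84 CPM in the other ABX mice. Without ABX_923 the log2 fold changes were 0.71 for *Rrm2*, 0.63 for *Top2a* and 0.26 for *Egr2*. The 5 largest towards SPF were *Baiap2l2*, *Efr3b*, *Rai14*, *C4b* and *Gas2l3*, with log2 fold changes of -2.16, -1.93, -1.49, -1.29 and -1.05. That of *Efr3b* was -1.23 without SPF_912, and that of *Rai14* -2.39 without ABX_911. Apart from *Klrd1*, these genes had means under 8 CPM in both groups, so they reached an average of 3 log2 CPM only through the other groups of the series, and *Baiap2l2* and *Efr3b* were under 1.2 CPM in each of the 10 mice. *C4b*, a complement component (chromosome 17, 34728380 to 34743882, minus strand), was at 2.81, 3.19, 2.96, 6.33 and 4.02 CPM in SPF and at 1.66, 0.529, 2.56, 1.25 and 1.85 CPM in ABX mice. Its groups did not overlap, and its fold change was 0.410 (0.220 to 0.766, edgeR adjusted p = 1).

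Small shifts shared by many genes were then looked for in 30 gene lists. These held 801 different genes, of which 762 were tested. Of these, 0 passed the adjusted threshold, and 25 were higher and 24 lower at an unadjusted p under 0.05, together 6.43 percent against 4.49 percent of all genes tested. The whole interval lay within 2-fold for 640 of them. The median log2 fold change of all genes tested was -0.005, and 48.55 percent of them were above 0. Relative to this median, the lists ranged from -0.241 to 0.320. In 28 of the 30 lists the mean levels of ABX and SPF mice overlapped, and they did not overlap for the integrated stress response and the TGF-beta pathway, both lower in ABX mice. List members named beside the one of smallest p were singled out after their values were seen.

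**Figure D3:**
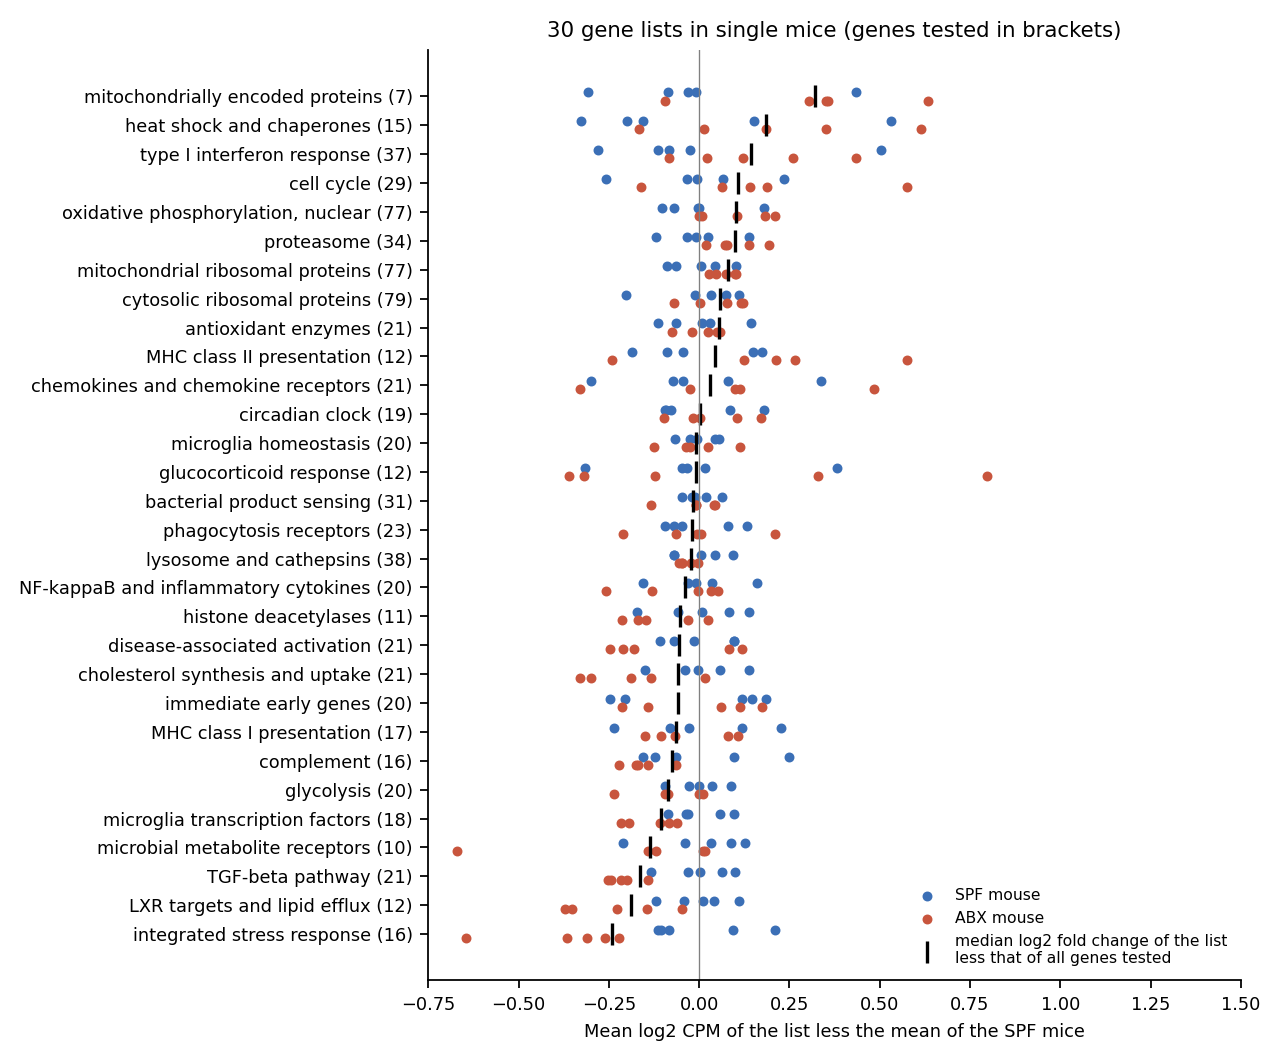
Mean log2 CPM of the tested genes of 30 lists in each SPF (blue) and ABX (red) mouse, less the mean of the SPF mice, with a black mark at the median log2 fold change of the list less that of all genes. The ABX mice lay below all SPF mice for the integrated stress response and the TGF-beta pathway, and the groups overlapped in the other 28 lists.

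The TGF-beta pathway list covers the ligand, receptors, SMAD proteins and their regulators. Its mean level was 5.80, 5.76, 5.89, 5.66 and 5.86 log2 CPM in the SPF and 5.54, 5.65, 5.55, 5.59 and 5.58 log2 CPM in the ABX mice. The median log2 fold change was -0.17, with 7 of 21 genes above 0, 13 below, and 1, *Itgb8*, without a read in the 10 mice. At an unadjusted p under 0.05, 6 of the 21 were lower in ABX mice and 0 higher. The ligand gene *Tgfb1* had 242 ± 12.9 CPM in SPF and 197 ± 33.9 CPM in ABX mice (SD, n = 5 each). *Smad3*, a transcription factor activated by the receptor (chromosome 9, 63646767 to 63757994, minus strand), was at 122, 140, 116, 132 and 144 CPM in SPF and at 94.9, 98.8, 99.9, 106 and 99.6 CPM in ABX mice. These groups did not overlap, and the fold change was 0.764 (0.609 to 0.957, edgeR adjusted p = 1, and 0.181 to 1 over the alternatives). The inhibitors *Smad7*, *Ski* and *Smurf1* had log2 fold changes of -0.36, -0.41 and -0.32, so that both activators and inhibitors of the pathway were among the 6. The last was *Tgfbr3*, a co-receptor with 18, 2, 12, 0 and 4 reads in SPF and 0 in each ABX mouse. *Tgfbr2* had 948 ± 75.1 CPM in SPF and 858 ± 113 CPM in ABX mice (SD, n = 5 each) and was not among them. The list's median, less that of all genes, was -0.163. It was -0.110 with GC offsets, which take out each library's smooth trend of expression with GC content, -0.0681 without ABX_909 and -0.0809 without ABX_911. With the term for ranges of the mouse number, 1 gene in place of 6 reached an unadjusted p under 0.05.

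The integrated stress response list holds ATF4 and its targets in amino acid supply. Its mean level was 2.81, 3.10, 2.78, 2.79 and 2.99 log2 CPM in the SPF and 2.58, 2.63, 2.25, 2.67 and 2.53 log2 CPM in the ABX mice. The median log2 fold change was -0.25, with 3 of 16 genes above 0, and 2 genes reached an unadjusted p under 0.05. *Asns*, asparagine synthetase, had 0, 10, 2, 14 and 11 reads in SPF and 1, 0, 0, 0 and 0 reads in ABX mice. *Slc7a5*, a subunit of the transporter for large neutral amino acids, had 73.1 ± 8.28 CPM in SPF and 56.1 ± 13.7 CPM in ABX mice (SD, n = 5 each). *Ddit3*, another target of ATF4, had 24.6 ± 3.42 CPM in SPF and 27.8 ± 3.53 CPM in ABX mice. The list's median less that of all genes was -0.241, and it was -0.137 with GC offsets and between -0.280 and -0.143 when 1 mouse was left out. With the number range term it was -0.125, and over the 10 members with at least 10 reads in each mouse it was -0.0928.

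Genes of lipid metabolism had negative medians as well. Of 12 LXR targets and lipid efflux genes, 2 were above 0, and the median log2 fold change was -0.19. *Srebf1*, which drives fatty acid synthesis genes such as *Fasn*, was at 35.1, 54.1, 48.8, 47.3 and 45.7 CPM in SPF and at 32.0, 31.9, 27.4, 44.4 and 45.5 CPM in ABX mice. *Srebf2*, its counterpart for cholesterol synthesis, was at 17.8, 27.1, 21.7, 22.7 and 24.8 CPM in SPF and at 16.4, 17.1, 14.9, 17.6 and 22.3 CPM in ABX mice. For both genes the groups overlapped, with SPF_912 among the ABX mice. For *Srebf2*, ABX_932 (22.3 CPM) also lay above SPF_926 (21.7 CPM). *Abca1*, the cholesterol exporter, was at 352 to 527 CPM in SPF and at 267 to 424 CPM in ABX mice, and *Abcg1*, another exporter, had 140 ± 8.42 and 135 ± 19.1 CPM (SD, n = 5 each). Of 21 genes of cholesterol synthesis and uptake, 6 were above 0, with a median of -0.06, and *Srebf2* alone reached an unadjusted p under 0.05. Without ABX_911, 10 were above 0 and 11 below, and when 1 mouse was left out the median less that of all genes, -0.0574, ranged from -0.106 (without SPF_928) to -0.0148 (without ABX_911). With GC offsets the median of the LXR list less that of all genes moved from -0.189 to -0.0807. It was -0.0909 without ABX_911 and -0.101 with the number range term.

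Mitochondrial and proteasome genes had positive medians. Of 77 nuclear genes of oxidative phosphorylation, 63 were above 0, with a median log2 fold change of 0.10, of which 2 (*Cox7a2* and *Atp5j*) reached an unadjusted p under 0.05. That count was 0 without SPF_925, SPF_926 or ABX_911, 13 without SPF_912, 7 without ABX_932, 5 without ABX_923 and 9 with voomWithQualityWeights. The intervals of 76 of the 77 lay within 2-fold and of 69 within 1.5-fold. The mean level of this list was 5.54, 5.25, 5.29, 5.36 and 5.36 log2 CPM in SPF and 5.46, 5.54, 5.57, 5.36 and 5.37 log2 CPM in ABX mice, so SPF_912 lay among the ABX mice. All 7 tested genes encoded in mitochondrial DNA were above 0, with a median of 0.32 and 0 at an unadjusted p under 0.05. That count was 5 in the 10 mice alone, 4 with voomWithQualityWeights, and 3 without SPF_912 or ABX_932. Less that of all genes, this median was 0.320. It was 0.429 without SPF_912, 0.416 without ABX_932, 0.367 with voomWithQualityWeights, 0.221 without SPF_925, 0.223 without ABX_911, 0.188 with GC offsets, 0.167 with the number range term, 0.191 without ABX_911 and ABX_923 and 0.135 with GC offsets without ABX_911. These genes were highest in ABX_911 (8.08 log2 CPM) and next in SPF_912 (7.88). Of 34 proteasome subunits, 30 were above 0 and 4 reached an unadjusted p under 0.05, with a median of 0.09 and all 34 intervals within 1.5-fold. The count of 4 was 0 without SPF_926 or ABX_911 and with the number range term, 1 without SPF_928, 2 without SPF_925, and 7 without SPF_912 or ABX_923. *Psma1*, a subunit of the core ring, had 200 ± 19.9 CPM in SPF and 237 ± 31.4 CPM in ABX mice (SD, n = 5 each). Mitochondrial ribosomal proteins were above 0 in 55 of 77 genes, with a median of 0.07 that was 0.05 without SPF_926 and 0.03 with the number range term, and cytosolic ones in 54 of 79 (median 0.05). For the cytosolic ones the direction was not stable, with 36 above 0 and 43 below under the number range term (median -0.01), 43 above and 36 below with length offsets, and 45 above and 34 below without SPF_925. With gene length offsets, 54 of the 77 oxidative phosphorylation genes were above 0, and with the number range term 52 were, where the median less that of all genes was 0.0423 in place of 0.103.

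The other lists lay between these. Of 18 transcription factors of microglia, 2 were above 0, with a median of -0.11, and *Smad3*, *Tfe3* and *Cebpa* reached an unadjusted p under 0.05. The number of them lower at that p was 1 without SPF_926, ABX_909 or ABX_910, with GC offsets or with scaling to library size alone, and 0 with the number range term. Of 15 heat shock genes and chaperones, 12 were above 0, with a median of 0.18. Their mean level ranged from 5.12 to 5.98 log2 CPM in SPF and from 5.28 to 6.06 in ABX mice, and the median less that of all genes was 0.186, or 0.00433 without ABX_911 and 0.301 without SPF_928. Of 20 glycolysis genes, 15 were below 0 (median -0.09), with *Pkm* and *Hk3* at an unadjusted p under 0.05. Less that of all genes, this median was -0.0853, and it was -0.0217 with GC offsets, -0.0255 with the number range term and -0.0319 without ABX_911, each with 0 genes at an unadjusted p under 0.05. Cell cycle genes had a median of 0.10, with 21 of 29 above 0, but 14 were above and 15 below with voomWithQualityWeights (median -0.01) and 15 above and 14 below without ABX_911 and ABX_923. Less that of all genes, the median of 0.108 was 0.224 without ABX_910, 0.207 without ABX_932 and 0.206 without SPF_928. Lysosomal genes and cathepsins (-0.03), complement (-0.08), phagocytosis receptors (-0.02), class I (-0.07) and class II presentation (0.04), NF-kappaB and inflammatory cytokines (-0.04), immediate early genes (-0.06), histone deacetylases (-0.06), clock genes (-0.004), glucocorticoid response genes (-0.01) and antioxidant enzymes (0.05) had medians of under 0.1 in either direction, which less that of all genes ranged from -0.117 to 0.121 when 1 mouse was left out. Among phagocytosis receptors, *Msr1*, a scavenger receptor, was at 0.408, 1.38, 2.24, 0.431 and 0.842 CPM in SPF and at 4.07, 1.85, 3.33, 4.07 and 1.25 CPM in ABX mice, with a fold change of 2.77 (1.46 to 5.23, edgeR adjusted p = 1).

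The fold changes were related to GC content. Over 7559 genes of at least 4 log2 CPM, Spearman's rho between log2 fold change and the GC content of the longest transcript was -0.431. This correlation is across genes, which share the same 10 libraries and are not independent. In the quintile of genes with the least GC, the median log2 fold change was 0.073, and in that with the most GC it was -0.106. In the quintile with the most GC, the mean level less that of all genes was -0.154, -0.0484, -0.0834, -0.0573 and -0.0845 log2 CPM in the SPF and -0.184, -0.204, -0.363, -0.0332 and -0.112 log2 CPM in the ABX mice. ABX_909, ABX_910 and ABX_911 lay below all SPF mice, ABX_932 within their range and ABX_923 above it. The part of this relation in the list medians is given by the values with GC offsets, and its cause was not tested. The relation to summed exon length was weaker, with a rho of -0.186 and a median log2 fold change of 0.039 in the quintile of the shortest genes. With GC offsets 0 genes were called and 552 of 14793 genes reached an unadjusted p under 0.05.

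**Figure D4:**
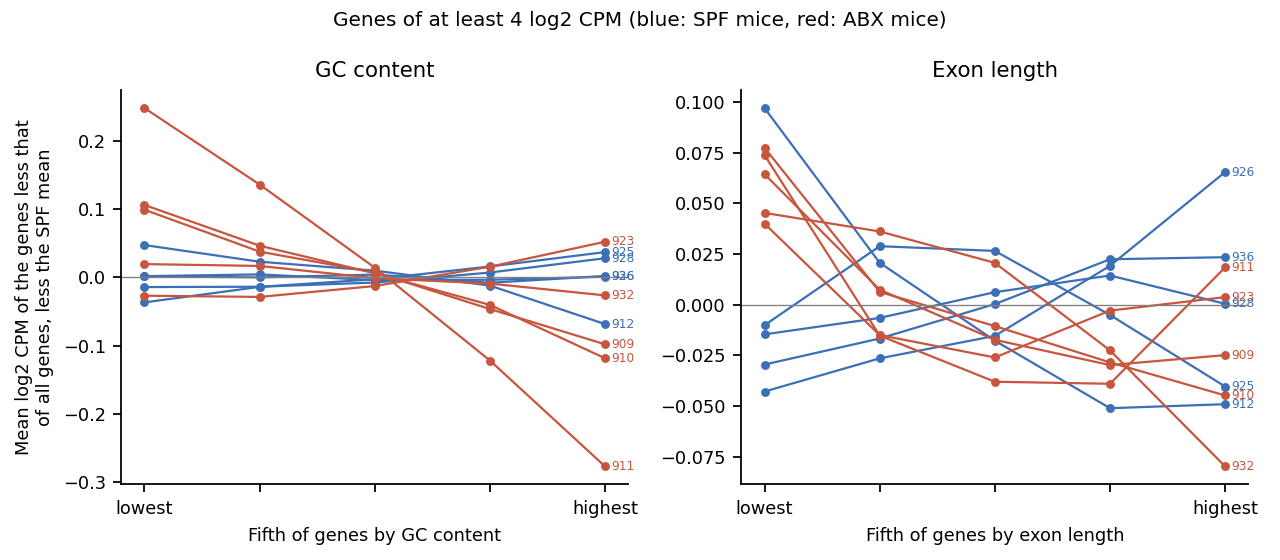
Mean log2 CPM of genes in 5 classes of GC content (left) and exon length (right), less the mean of all genes of at least 4 log2 CPM and less the SPF mean, for each SPF (blue) and ABX (red) mouse, labelled by mouse number. ABX_911 had the steepest line in the left panel, followed by ABX_910 and ABX_909, ABX_932 ran within the range of the SPF mice in the classes of the most and the least GC, and ABX_923 lay above it in the class of the most GC.

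**Figure D5:**
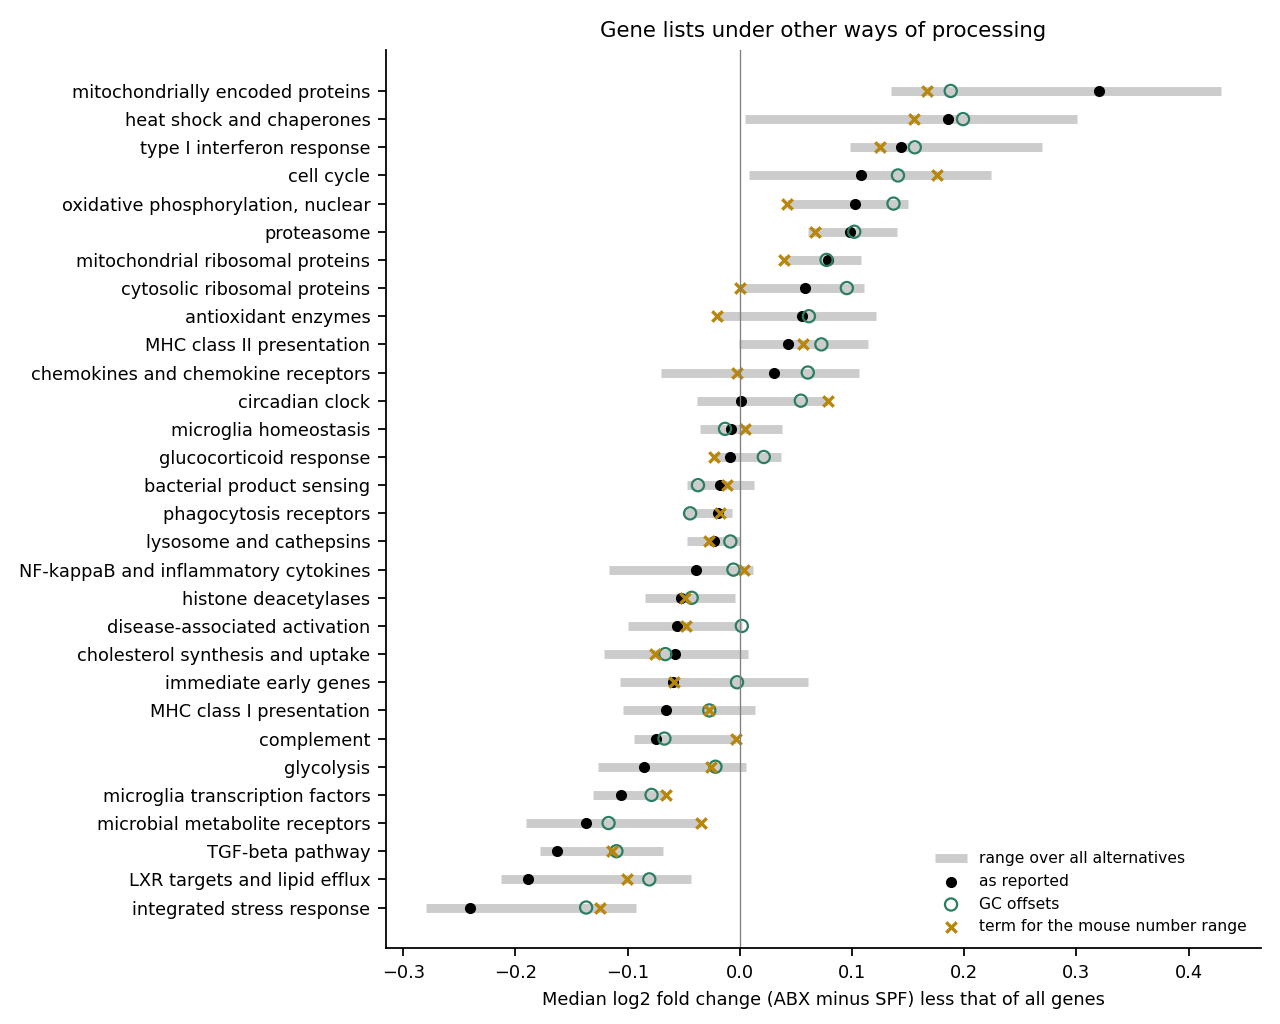
Median log2 fold change of each list (ABX minus SPF) less that of all genes tested, as reported (black), with GC offsets (green ring) and with a term for the mouse number range (cross), over the range of all alternatives (grey bar). The integrated stress response, LXR and TGF-beta lists stayed below 0 and the oxidative phosphorylation and proteasome lists above 0 in each alternative, at smaller sizes in several. Of the 30 lists, 17 had the sign of the reported value in all 26 alternatives and 13 had another sign in at least 1.

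The spread between mice was larger in the ABX than in the SPF group for most genes, a difference that was not tested. Among 557 genes of 8 log2 CPM and over, where counting noise is small, the median SD of log2 CPM was 0.101 in SPF and 0.133 in ABX mice, and the SD was higher in ABX mice for 68.6 percent of genes. The median distance of a mouse from the mean of the other mice of its group was 0.0652 to 0.112 log2 units in SPF and 0.0593 to 0.167 in ABX mice. ABX_911 was farthest, followed by ABX_932 (0.131), and ABX_910 was the closest of all 10 mice. The first 3 principal components of the 10 mice held 18.4, 14.1 and 12.9 percent of the variance. ABX_923 had the highest score on the first, ABX_911 on the second and ABX_909 on the third. Without ABX_911 and ABX_923, 0 genes were called and 518 reached an unadjusted p under 0.05.

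Germ-free (GF) WT mice, which lacked microbiota from birth, give a measure of the scale. The 4 GF mice came from another facility than the SPF and ABX mice and their libraries have another numbering style, so these differences cannot be told apart from germ-free housing. The same test called 248 genes between GF and SPF WT mice (1.62 percent of genes tested) and 1053 genes between ABX and GF WT mice (6.88 percent). These comparisons share the SPF or the ABX mice. The count of 248 fell to 92 without SPF_912, 106 without SPF_936, 113 without SPF_926, 159 without SPF_928 and 120 with GC offsets. One further GF library is 5xFAD by its title and genotype but WT by its description and was kept as 5xFAD. Taken as GF WT, it raised the counts to 716 and 1672, and left out, it gave 241 and 1081. The count of 1053 fell to 225 with GC offsets, to 504 without ABX_911, to 627 without ABX_910 and to 644 without ABX_909. For *H2-Ab1* the log2 fold change was 0.12 in ABX and 2.67 in GF against SPF mice, and between ABX and GF mice it was -2.54 (SE 0.544, edgeR adjusted p = 0.00607). For *Cd74* the values were 0.38, 2.84 and -2.46 (SE 0.522, adjusted p = 0.00581). *Apoe* had log2 fold changes of -0.19 in ABX and 0.91 in GF against SPF mice, and -1.10 between ABX and GF mice (SE 0.227, adjusted p = 0.00480). *Fasn* had -0.96 and 0.27, and -1.23 between ABX and GF mice (SE 0.248, adjusted p = 0.00443). *Srebf2* had -0.37 and 0.51, and -0.88 between ABX and GF mice (SE 0.143, adjusted p = 0.00114). For *Smad3*, ABX and GF mice had log2 fold changes of -0.39 and -0.47 against SPF mice, and their own difference of 0.08 (SE 0.169) was not called. *Fasn*, *Srebf2* and *Smad3* were named for their difference between ABX and SPF mice. The comparison of ABX with GF mice shares these ABX mice, so for these genes it is no independent test.

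In 5xFAD mice the effect of antibiotics was not shown to differ from that in WT mice. The effect in 5xFAD mice rests on 6 ABX and 3 SPF mice. Most of these ABX libraries have another numbering style than the SPF 5xFAD libraries, which can hardly be told apart from treatment. The test of the difference between both effects called 0 of 15298 genes (0 percent), with 1032 at an unadjusted p under 0.05 and a smallest adjusted p of 0.704. DESeq2 called 1 gene and voomWithQualityWeights 14. For *Fasn* the effect in 5xFAD less that in WT mice was 0.93 on the log2 scale (SE 0.352, edgeR adjusted p = 0.704), for *C4b* it was 2.55 (SE 0.647, adjusted p = 0.704) and for *Vamp4* -0.47 (SE 0.126, adjusted p = 0.704). These genes were named for their effect in WT mice. That effect enters the difference with the opposite sign, so the sign of these values follows in part from the choice of genes.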

How the data were processed

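The authors prepared RNA of sorted hippocampal microglia with the SMARTer v4 Ultra Low input and Nextera XT kits, which do not mark strand, and sequenced single reads on an Illumina HiSeq. Per the labels, reads were checked with FastQC 0.11.8, aligned with STAR 2.7.2 and counted with featureCounts 1.6.2. The labels name a human build, whereas the study's methods and the exon coordinates of the table are of mouse GRCm38. The deposited values are raw read counts per gene, with gene symbols and summed exon lengths. All per-sample columns were used. The 92 spike-in entries, with at most 12 reads in a library, were left out of the 48587 genes.

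Groups were taken from the library titles, also for 1 GF mouse that is 5xFAD by title and genotype and WT by description. Mouse numbers name single mice and are not shared between groups. Nothing marks mice of 1 group as the same animal, and pairs of libraries of 1 group differed by more than sampling noise (chi-square per degree of freedom of at least 12.0). Over these 10 mice Pearson's r of log2 CPM was 0.956 to 0.982.

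In R 4.3.3, edgeR 4.0.16 was run on all 28 mice in 6 groups, which share 1 estimate of the spread, with filterByExpr (minimum count 10, minimum total 15), TMM scaling and the quasi-likelihood test. P-values were adjusted by Benjamini-Hochberg over all genes tested, with a threshold of 0.05. Intervals of 95% used the SE from the quasi-likelihood F and its degrees of freedom. CPM values are TMM scaled, except cell type sums, which refer to library totals, and list levels are means of log2 CPM with a prior count of 2. GC content was that of the longest GENCODE M21 transcript, known for 96.7 percent of genes tested. Totals and cell type sums were compared by exact two-sided permutation tests. The p-values measure the spread between mice.

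The mice, lists and tests were chosen with earlier results of these data known. Genes named by rule were any past the threshold, the 5 largest differences in each direction at an unadjusted p under 0.05 and at least 3 log2 CPM, 24 chosen microglial genes, and in each list the gene of smallest p and any with p under 0.01. Alternatives were RLE factors, library size alone, all genes with a read, genes with 10 counts or more in each of the 10 mice, the 10 mice alone, DESeq2 1.42.0, limma 3.58.1 with voom or voomWithQualityWeights (the study's test), gene length or GC offsets, a term for the mouse number range, other thresholds, list members of at least 3 log2 CPM, and leaving out each mouse. Fits without ABX_911 and ABX_923, with GC offsets without ABX_911, and with that GF mouse left out or taken as WT, were added after the values were seen. The procedure was tested on simulated data. Values of 2 chosen microglial genes are not reported here.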

Additional observations from a re-analysis of the deposited data

Results flagged for a closer look

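In groups of 5, a value was listed here when its gap to the nearest other mouse exceeded 0.71 of the whole range of the group (Dixon's 95% critical value), on a log2 scale for genes. Of 214 groups of values examined, 10 met this, or 4.67 percent, and chance flags about 1 in 20.

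The total of ABX_932, 29977395 reads, lay above the 14441610 to 17566646 reads of the other 4 ABX mice. *Cox7a2* was at 69.4 CPM in ABX_911 and at 47.5 to 51.8 CPM in the other ABX mice. *Plxnb2*, a plexin receptor, was at 652 CPM in SPF_912 and at 797 to 831 CPM in the other SPF mice. The mean level of the receptors for microbial metabolites was 2.39 log2 CPM in ABX_911 and 2.92 to 3.08 in the other ABX mice.

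For 6 rare transcripts, 1 mouse of a group had reads and the other 4 had none: *Asns* at 0.0573 CPM and *Ttr* at 0.573 CPM in ABX_909, *Enpp2* at 0.0659 CPM in ABX_932, *Pparg* at 0.187 CPM in SPF_936, *S100a9* at 0.168 CPM in SPF_926 and *Zbtb16* at 0.0431 CPM in SPF_928.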

How the results depend on the processing

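No gene was called between ABX and SPF WT mice in 23 of 25 alternatives. DESeq2 called 2, and 1 gene, *Stil*, was called without SPF_936, where it had 32 reads against 0 to 4 in the other SPF mice, so the count ranged from 0 to 1 when a mouse was left out. At adjusted thresholds of 0.1 and 0.2 the count stayed 0, and at an unadjusted p under 0.05 it was 687. The share of genes bounded within 2-fold, 67.5 percent as reported, was 40.1 percent without a filter, 89.5 percent with 10 counts in each mouse, 81.7 percent in the 10 mice alone, 70.6 percent with quality weights, 64.2 percent with the number range term, 64.3 percent without ABX_911 and ABX_923, and 65.8 to 66.8 percent without 1 mouse. The median margin of the interval was 1.44, 0.335, 0.311, 0.343, 0.476 and 0.484 in the same order, 0.442 to 0.452 without 1 mouse, 0.410 with length offsets, 0.407 with GC offsets and 0.434 with GC offsets without ABX_911. In the 10 mice alone, 1068 of 13139 genes (8.13 percent) reached an unadjusted p under 0.05 and the smallest adjusted p was 0.416. With the number range term 399 did.

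Genes called between GF and SPF WT mice, 248 as reported, numbered 721 in DESeq2, 1631 with quality weights, 120 with GC offsets, 123 with GC offsets without ABX_911, and 92 (without SPF_912) to 300 without 1 mouse, and 716 with the GF mouse of conflicting labels taken as WT. Between ABX and GF WT mice, 1053 as reported became 1618, 2025, 225 and 99 in the same order, 330 without ABX_911 and ABX_923, and 504 (without ABX_911) to 1153 without 1 mouse, and 1672 with that GF mouse taken as WT. The effect of antibiotics differed by genotype for 1 gene in DESeq2 and 14 with quality weights.

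Among list medians less that of all genes, the TGF-beta list was -0.0831, the LXR list -0.0432 and glycolysis 0.00558 with GC offsets without ABX_911. Leaving out 1 mouse, the TGF-beta median ranged from -0.178 to -0.0681. The other 775 list values moved by less than the spread between mice. No named gene that had an unadjusted p under 0.05 changed direction. The cause of these movements was not tested. No paired analysis was possible because the groups share no mouse numbers. Precision was lowest for rare genes: under 0 log2 CPM, intervals spanned 3.65-fold at the median in each direction.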

Other observations

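SPF_912 stood among or next to the ABX mice in several lists, a pattern noticed after the values were seen. Its mean level was the highest of the 5 SPF mice for oxidative phosphorylation (5.54 log2 CPM), the proteasome (6.44), mitochondrially encoded proteins (7.88) and mitochondrial ribosomal proteins (4.58), and its *Fasn*, *Srebf1*, *Srebf2* and *Plxnb2* levels (18.1, 35.1, 17.8 and 652 CPM) were the lowest of the SPF mice. Without it, 848 genes in place of 687 reached an unadjusted p under 0.05 and 0 were called, with a smallest adjusted p of 0.671. SPF_912 is the only SPF mouse in the number range that holds ABX_909, ABX_910 and ABX_911. Number range and treatment are thus unbalanced over these mice, and whether the range bears on this pattern was not tested.

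*Zbtb16*, a gene induced by glucocorticoids, had 0, 6, 43, 0 and 0 reads in the ABX and 0, 0, 0, 1 and 0 in the SPF mice, in the order of their numbers. The glucocorticoid response list holds *Zbtb16* itself, so its level is not separate from that of this gene. Its mean level was highest, at 4.66 log2 CPM, in ABX_911, where *Zbtb16* was highest. The next highest levels, 4.25 and 4.20, were in SPF_928 and ABX_910. Heat shock genes and chaperones were highest in the same 3 mice, at 6.06, 5.98 and 5.80 log2 CPM. These levels were seen in mice of both groups.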
